A study of Mus musculus with 12 samples.

Results

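The comparison described here is the difference between 2 responses to the deletion of Rictor: the response in mouse leukemia driven by the fusion MLL-NRIP3 minus the response in leukemia driven by the fusion MLL-AF9. All 12 of the 12 arrays of the series entered it, 3 in each of 4 groups. The MLL-AF9 control and MLL-NRIP3 control cells were wild type for Rictor, and the MLL-AF9 RictorΔ/Δ and MLL-NRIP3 RictorΔ/Δ cells carried the Rictor deletion. In every group the cells were leukemia cells of the K+G– phenotype (an abbreviation that the labels leave unexplained), sorted from bone marrow of mice that had received a first transplantation, once CD45.2+ cells made up more than 50% of the white blood cells in the blood of the recipients. The labels name the cells as bone marrow cells but give peripheral blood as the host tissue. They state neither the Cre driver, nor the age or sex of the mice, nor whether 1 mouse or several gave the RNA of a group, so a p-value here measures the spread between these arrays, which may be technical. A response is the mean log2 intensity of the deleted arrays minus that of the control arrays, and the difference is positive where the response was higher in MLL-NRIP3 leukemia. Of 18194 named genes, 626 on chromosomes X and Y and 5336 dim genes were left out, and 12232 were tested.

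Rictor is the defining subunit of mTOR complex 2 (mTORC2), a kinase complex that phosphorylates AKT and other AGC kinases downstream of growth factor receptors and thereby restrains the FoxO transcription factors. MLL fusions join the DNA-binding part of a histone methyltransferase to a partner protein and hold genes such as the Hoxa cluster and Meis1 active in leukemia that resembles blocked myeloid progenitors. When normal progenitors mature to neutrophils, they make granule proteins in order, primary (azurophil) granule proteins at the promyelocyte stage and secondary and tertiary granule proteins later.

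The 6 arrays of each model shared nearly the same distribution of intensities. Medians were 8.16 to 8.36 on the MLL-AF9 arrays and 13.6 to 14.2 on the MLL-NRIP3 arrays, so levels are compared only within a model. The 2 responses that are subtracted still come from these unlike scales. The brightest probe set of Rictor was not called in either model, with means of 86.8 ± 4.8 in control and 87.5 ± 9.26 in deleted MLL-AF9 arrays and 113 ± 26 and 104 ± 18.6 in MLL-NRIP3 arrays (SD, n = 3). Other Rictor probe sets, tested on their own, gave differences of 0.24, 0.09 and 0.80, none called, and a further one was dim. The first 2 read 30.9 and 21.9 in control and 25.3 and 16.5 in deleted MLL-AF9 arrays (means). The last read 49.7 ± 14.8 in control and 113 ± 44.8 in deleted MLL-NRIP3 arrays (SD, n = 3). The positions of these targets relative to the deletion were not given in the sources, so this is no check of the labels. Ptprc, the gene of the leukocyte antigen CD45, had a difference of -0.05 (standard error 0.13). Xist, a transcript of the inactive X chromosome, lay between 2348 and 2441 in MLL-AF9 controls but between 34.3 and 207.6 in deleted MLL-AF9 arrays, and the Y-linked Eif2s3y was low in the former (3.42 to 7.81) and high in the latter (149.2 to 185.7). Genotype and sex of the cells therefore cannot be told apart in MLL-AF9 leukemia, and this touches every difference given here. MLL-NRIP3 control arrays 1 and 2 stood apart in quality, with mean hybridization control signals of 11.2 and 10.6 on the log2 scale, against 9.31 to 9.53 on the other MLL-NRIP3 arrays, and Gapdh 5′ to 3′ ratios of 0.562 and 0.738, against 0.881 to 0.965.

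The response to Rictor deletion differed between the leukemias for 511 of 12232 genes, which is 4.18% of those tested (limma, adjusted p under 0.05), while 2263 genes had an unadjusted p under 0.05. The difference was below 0 for 282 of them (2.31%) and above 0 for 229 (1.87%), and 226 differed by 2-fold or more, 141 below and 85 above 0. Over all genes the median difference was 0.01. The response within MLL-AF9 leukemia was called for 166 genes (1.36%), 113 higher (0.924%) and 53 lower (0.433%) in deleted cells. That within MLL-NRIP3 leukemia was called for 1663 (13.6%), 718 higher (5.87%) and 945 lower (7.73%). Both counts rest on 1 spread shared by all groups, although arrays varied more within the MLL-NRIP3 groups, as given below. The counts are thus no measure of how widely each leukemia responded. The difference was itself called for 107 of the 166 genes (64.5%) and for 399 of the 1663 genes (24.0%).

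Point estimates of opposite sign were the most frequent combination among called genes, which is in part a result of choosing them by the difference. Over all 12232 genes, 45.5% had estimates of opposite sign. The share was 56.6% of the genes called in MLL-AF9 and 42.8% of those called in MLL-NRIP3 leukemia. Of the 282 genes called below 0, the estimates were up in MLL-AF9 and down in MLL-NRIP3 leukemia for 229, down in both for 46 and up in both for 7. Of the 229 genes above 0, 170 were down in MLL-AF9 and up in MLL-NRIP3 leukemia, 52 were up in both and 7 were down in both. A stricter reading asks that both responses also be called: this held with opposite signs for 35 genes (0.286% of those tested) and with the same sign for 1, Cenpv, a centromere protein gene that fell by more in MLL-NRIP3 leukemia. For 363 of the called genes only the MLL-NRIP3 response was called as well, for 71 only the MLL-AF9 response, and for 41 neither. These classes rest on the same shared spread. Over all genes, the responses were nearly uncorrelated (Pearson r = -0.0091 across 12232 genes, a description in which genes are not replicates).

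**Figure D1:**
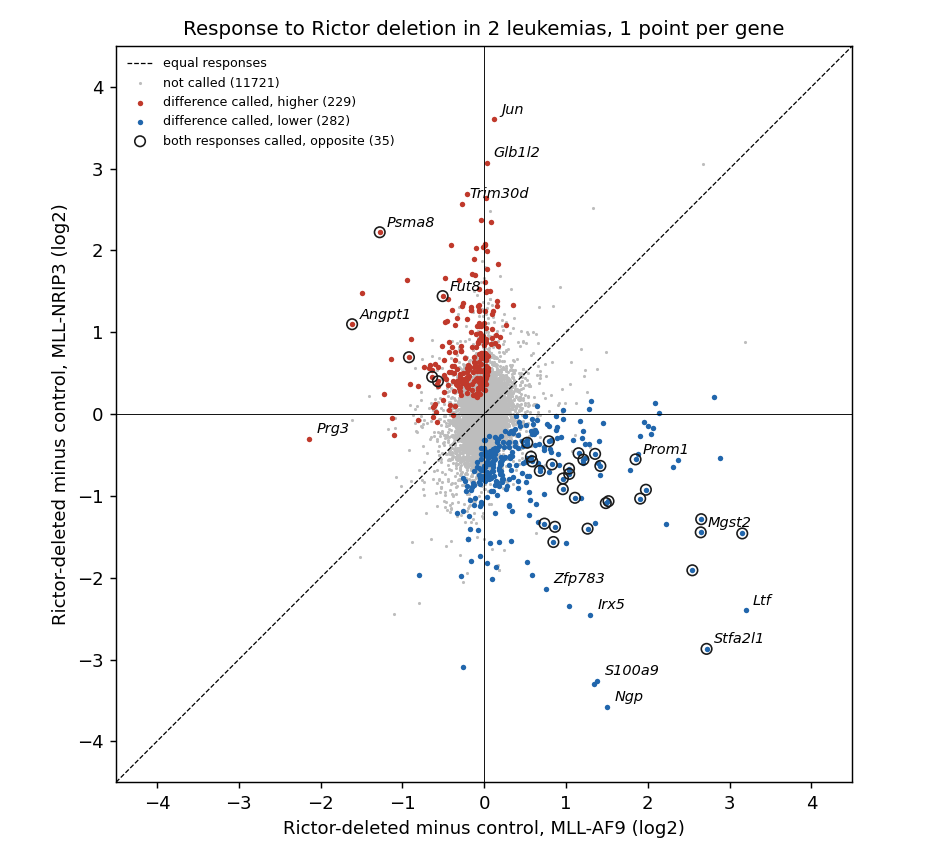
Each point is a gene, with the log2 response to Rictor deletion in MLL-AF9 leukemia on the x axis and in MLL-NRIP3 leukemia on the y axis; the dashed line marks equal responses. Genes called for the difference lie off that line, 282 below it (blue) and 229 above it (red), and the 35 ringed genes had called responses of opposite sign, 29 of them in the lower right.

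The count of calls depends on how the spread between arrays is estimated. The median SD of a gene over 3 arrays was 0.076 and 0.063 in control and deleted MLL-AF9 arrays, and 0.145 and 0.136 in MLL-NRIP3 arrays. An unmoderated test of the same model called 264 genes. With each group's own variance, an alternative added after seeing the data, 4 genes were called, namely Marveld1, Tlr1, Trim30d and Trim34a, while 498 of the 511 had an unadjusted p under 0.05; the calls given below rest on the shared spread, and none but those of these 4 genes survives adjustment without it. In simulated arrays in which each group had its own spread, the fit with a shared spread made more false calls than its threshold allows for, so that the adjusted p-values given here may be too small. For 52 called genes every MLL-AF9 array, and for 6 every MLL-NRIP3 array, lay below 7.61, the lowest mean among tested genes. A fall in that model could hardly be measured for them. Among all genes tested, the same held for 924 and 39.

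Genes of neutrophil granule proteins and stefins had some of the lowest differences. Of the 16 secondary and tertiary granule genes that could be tested, 11 were called, all with a difference below 0 (68.8%, beside 2.31% of all genes). The median difference was -2.19, with median responses of 1.23 in MLL-AF9 and -0.43 in MLL-NRIP3 leukemia. Ltf, the gene of the iron-binding granule protein lactoferrin, read 298, 125 and 113 on the control and 1800.4, 1597 and 1485 on the deleted MLL-AF9 arrays. On the MLL-NRIP3 arrays it read 741, 87.9 and 19.9 in controls and 8.46, 11 and 13.2 in deleted cells. The deleted arrays thus lay above all controls in MLL-AF9 leukemia and below all controls in MLL-NRIP3 leukemia, where the controls spread more than 10-fold. The difference was -5.60 (standard error 1.09, limma adjusted p = 0.0116), although neither response was called on its own (adjusted p = 0.0726 and 0.0579).

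Ngp, which encodes neutrophilic granule protein, read 2693, 1703 and 1722 in control and 6005, 5452 and 5593 in deleted MLL-AF9 arrays, a response that did not pass the test (adjusted p = 0.306). In MLL-NRIP3 leukemia it fell from 5097, 2367 and 875 to 201, 79.9 and 290.5 (adjusted p = 0.00116). The deleted arrays were again on opposite sides of their controls, with no overlap in either model, and the difference was -5.08 (standard error 0.73, adjusted p = 0.00205). Camp, the precursor of the antimicrobial peptide cathelicidin, gave -4.64 (adjusted p = 0.00701).

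Lcn2, the gene of the siderophore-binding protein lipocalin 2, read 587, 549.5 and 414 in control and 2892, 2429 and 2460.2 in deleted MLL-AF9 arrays but 793, 483 and 863 in control and 289, 593 and 485 in deleted MLL-NRIP3 arrays. Its rise was called in MLL-AF9 leukemia (response 2.30), whereas the MLL-NRIP3 arrays overlapped (response -0.64, adjusted p = 0.103); the difference was -2.95 (adjusted p = 0.000496). Cd177, a surface protein of secondary granules, had a rise of 2.88 in MLL-AF9 leukemia, a response of -0.53 that was not called in MLL-NRIP3 leukemia and a difference of -3.41 (adjusted p = 0.000138). Olfm4, the granule protein olfactomedin 4, rose by 0.85 in the former and fell from 153, 74.3 and 107 to 24.1, 30.8 and 22.7 in the latter. The remaining called members were Pglyrp1, Ceacam10, Orm1, Mmp8 and Ceacam1, between -2.58 and -1.12, and the members not called were Mmp9 (-1.67, adjusted p = 0.0628), Chil3, Lyz2, Itgam and Slpi.

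The upstream sequences of Ngp and Ltf, which lie on chromosome 9 and gave differences of -5.08 and -5.60, are shown because each holds the 8-base form of the motif bound by C/EBP factors, regulators of granule genes. They are the 250 bases before the annotated start in RefSeq (GRCm38.p6), at chr9:110419558-110419807 and chr9:111019042-111019291, both on the plus strand, with matches to TTGCNNAA on either strand in capitals.
Ngp: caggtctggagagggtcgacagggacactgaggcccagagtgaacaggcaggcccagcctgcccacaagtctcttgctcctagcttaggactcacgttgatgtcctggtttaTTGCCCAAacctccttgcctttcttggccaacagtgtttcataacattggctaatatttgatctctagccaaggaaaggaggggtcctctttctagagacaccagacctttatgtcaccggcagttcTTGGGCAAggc
Ltf: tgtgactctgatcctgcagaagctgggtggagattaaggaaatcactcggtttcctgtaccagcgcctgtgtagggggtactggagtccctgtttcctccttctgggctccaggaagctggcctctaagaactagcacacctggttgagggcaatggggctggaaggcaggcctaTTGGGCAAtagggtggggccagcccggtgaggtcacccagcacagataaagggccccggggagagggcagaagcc
This motif was found in 6 of the 24 called neutrophil genes with an upstream sequence (25%), in 28 of 229 genes called below 0 (12.2%), in 11 of 180 genes called above 0 (6.11%) and in 7.17% of the 9903 tested genes with a sequence. None of the 28 genes with opposite called responses that had a sequence held it. A match of letters describes the sequence and is not evidence of binding.

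Among the 20 tested genes of other mature neutrophil proteins, 12 were called, all below 0, with a median difference of -2.01. The 8 not called were Wfdc21 (-2.30), Il1r2 (-1.37), Mxd1 (-1.03), Clec4d (-0.54), Csf3r (-0.26), Alox5ap (-0.09), Clec4e (0.31) and Anxa1 (0.41). All 20 estimates were up in MLL-AF9 leukemia, whereas in MLL-NRIP3 leukemia 15 were down and 5 up. Those 5 were Anxa1 (1.00), Wfdc21 (0.88), Clec4e (0.52), Alox5ap (0.26) and the called gene Lrg1 (0.21). The stefin genes Stfa2l1 and Stfa3, which encode inhibitors of cysteine proteases and are neighbours on chromosome 16 among the genes tested, both had called responses of opposite sign. Stfa2l1 read 196, 154 and 119.8 in control and 1081, 1115 and 1112 in deleted MLL-AF9 arrays. In MLL-NRIP3 leukemia it read 466, 164 and 97.7 in control and 17.2, 7.28 and 16.7 in deleted arrays. No array of either model overlapped the other genotype, both responses were called (2.72 and -2.87), and the difference was -5.59 (standard error 0.54, adjusted p = 0.000121). Stfa3 followed with responses of 2.54 and -1.91 and a difference of -4.45 (adjusted p = 0.00248); since the stefin genes are close copies of each other, what each probe set measures is uncertain.

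The upstream sequences of the stefin pair are shown because the genes moved together. They lie at chr16:36156561-36156810 on the plus and at chr16:36455393-36455642 on the minus strand (RefSeq, GRCm38.p6), and runs of at least 12 bases that are identical in an alignment of the pair are in capitals.
Stfa2l1: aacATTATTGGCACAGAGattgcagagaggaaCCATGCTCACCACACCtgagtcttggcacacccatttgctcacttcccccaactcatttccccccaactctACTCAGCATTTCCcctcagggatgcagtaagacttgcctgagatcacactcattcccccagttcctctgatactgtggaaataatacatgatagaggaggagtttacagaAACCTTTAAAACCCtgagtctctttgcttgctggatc
Stfa3: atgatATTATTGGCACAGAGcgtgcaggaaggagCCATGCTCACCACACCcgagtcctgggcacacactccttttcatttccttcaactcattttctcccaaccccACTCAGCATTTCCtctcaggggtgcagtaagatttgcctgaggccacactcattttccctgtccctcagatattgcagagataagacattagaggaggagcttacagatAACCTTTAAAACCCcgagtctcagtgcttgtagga
Over 256 aligned columns, 206 bases (80.5%) were identical, and 4 runs of identical bases reached 12 or more, the longest of them 16. Neither holds the C/EBP motif in this window.

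S100a9, a subunit of the calcium-binding protein calprotectin, read 3039, 2229 and 2082 in control and 6765, 6075 and 6167 in deleted MLL-AF9 arrays. It read 5446, 2134 and 983 in control and 277, 162 and 239 in deleted MLL-NRIP3 arrays, so that the genotypes separated in both models and in opposite directions. The difference was -4.64 (standard error 0.61, adjusted p = 0.00117), and that of its partner and neighbour S100a8 was -3.37 (adjusted p = 0.00176). Mgst2, a microsomal glutathione transferase, rose from 75.5, 47.3 and 34.7 to 499, 371 and 346 in MLL-AF9 leukemia and fell from 346, 260.2 and 205 to 139, 94.9 and 47.6 in MLL-NRIP3 leukemia, with both responses called and a difference of -4.09 (adjusted p = 0.000177). The formyl peptide receptor gene Fpr2 and the integrin gene Itgb2l also had called responses of opposite sign, with differences of -4.61 (adjusted p = 0.00119) and -3.94 (adjusted p = 0.00121); a second probe set of Itgb2l gave 0.02 and was not called.

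Of the 15 tested primary granule genes, 3 were called, all below 0, and the median difference was -0.26. Fcnb, the gene of ficolin B, read 217, 228 and 199.8 in control and 1177, 1139 and 899 in deleted MLL-AF9 arrays and gave a difference of -3.57 (standard error 0.72, adjusted p = 0.0143). Ms4a3 and Igsf6, membrane proteins of myeloid precursors, gave -1.22 and -0.82 (adjusted p = 0.0205 and 0.0105). The protease genes Elane, Prtn3 and Ctsg had differences of -0.14, -0.26 and -0.39, none called, and the myeloperoxidase gene Mpo, at 914, 3198 and 77.4 in MLL-NRIP3 controls, had a difference of -2.09 that was not called either (adjusted p = 0.427). All 3 called primary granule genes lost their calls in the unmoderated test, as did Ltf, Camp, Pglyrp1, Lrg1 and Trem1 of the other neutrophil lists, and Ms4a3 lost its call in 8 alternatives. Whether the count of called genes differed between the granule lists was not tested.

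Together, 26 of the 51 tested genes in the 3 neutrophil lists (51.0%) were called, all below 0, beside 2.31% of all genes. The lists were chosen with earlier results of these data known, so these shares are a description and not a test. In bulk samples, fewer cells of a type and less RNA per cell cannot be told apart. Among MLL-NRIP3 arrays, control array 1 had the highest hybridization control signal, and the summed intensity of 21 other mature neutrophil genes was 17486 there, against 10487 and 8465 on the other control arrays and 6950 to 7507 on the deleted ones. For 17 secondary and tertiary granule genes the sums overlapped between genotypes, at 23761, 13451 and 11608 in controls and 9625, 12460 and 15052 in deleted arrays. For 15 primary granule genes the sum was lowest on control array 1 (26728), against 33659 and 27622 on the other control arrays and 28368 to 29121 on the deleted ones. Leaving out control arrays 1 and 2 leaves 1 MLL-NRIP3 control array, which is then assumed to vary like the other groups. In that fit 26 neutrophil genes were called below 0, 22 of them among the 26 called with all arrays, while Cxcr2, Lrg1, Ms4a3 and Trem1 lost their calls. With the control signal as a covariate 23 of the 26 were called again.

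**Figure D2:**
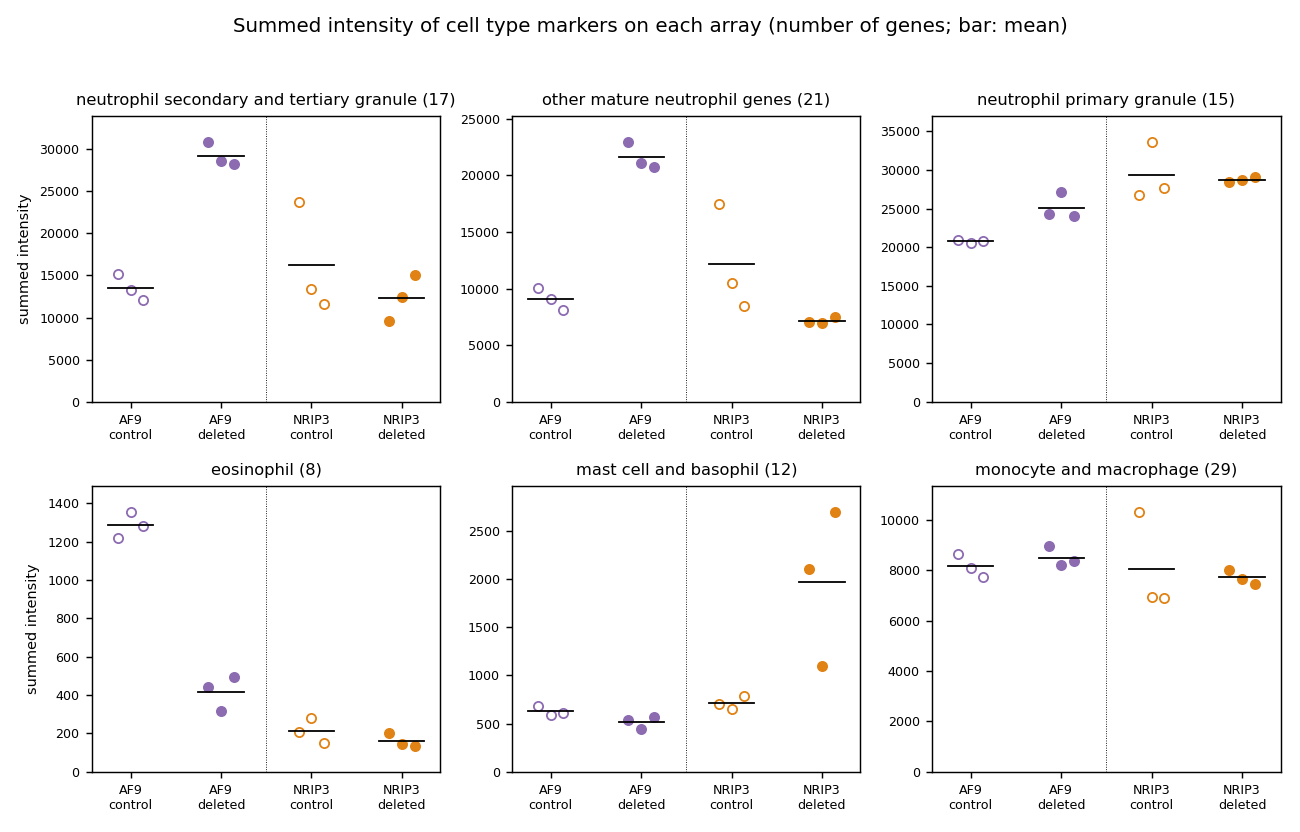
Summed intensity (y axis, from 0) of the measured genes of 6 cell type lists on each array, by group on the x axis, with a bar at each mean. Secondary and tertiary granule and other mature neutrophil genes are higher in deleted MLL-AF9 arrays. Sums of the other mature neutrophil genes read 20725 to 22986 there, against 8091 to 10053 in controls. Primary granule genes are also higher in deleted MLL-AF9 arrays (24049 to 27088, against 20583 to 20977 in controls). Eosinophil genes are lower in deleted MLL-AF9 arrays, and mast cell and basophil genes are higher in deleted MLL-NRIP3 arrays.

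Outside the neutrophil lists, 485 genes were called, 256 of them below 0. The lowest was Irx5, a homeobox transcription factor gene, which read 11.4, 7.67 and 10.2 in control and 45.9, 53.3 and 42.5 in deleted MLL-AF9 arrays, against 572, 297 and 275 in control and 14.5, 99.6 and 76.4 in deleted MLL-NRIP3 arrays. The genotypes separated in opposite directions in the models, and the difference was -3.75 (standard error 0.56, adjusted p = 0.0026). Its neighbour Crnde was called in the same direction (-1.15). Prom1, which encodes the progenitor surface protein CD133, rose from 65.3, 69.8 and 53.7 to 283, 305 and 221 in MLL-AF9 leukemia and fell from 97.6, 133 and 88 to 56.9, 79.4 and 64 in MLL-NRIP3 leukemia. Both of these responses were called under the shared spread, and the difference was -2.40 (standard error 0.23, adjusted p = 0.000117). With limma on the MLL-NRIP3 arrays alone, the fall of Prom1 there was not called (adjusted p = 0.174).

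The kinase gene Mapk13 (p38 delta) had responses of 1.49 and -1.09 and a difference of -2.57 (adjusted p = 0.000376), and Gpr84, a receptor for medium-chain fatty acids on myeloid cells, had responses of 1.98 and -0.92 and a difference of -2.90 (adjusted p = 0.000159). Pram1, an adaptor protein of myeloid cells, had responses of 1.26 and -1.40 (difference -2.66, adjusted p = 0.00177). The carboxylesterase gene Ces1d, at 5.88 to 7.59 in MLL-AF9 controls, read 61.3, 77.5 and 66.9 after deletion and gave a difference of -2.94 (adjusted p = 0.000253). These 4 genes had called responses of opposite sign under the shared spread. With limma on the MLL-NRIP3 arrays alone, none of their falls there was called. The adjusted p was 0.0684 for Mapk13, 0.101 for Gpr84, 0.0779 for Pram1 and 0.106 for Ces1d.

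For the next 5 genes only 1 response was called under the shared spread. Zfp783, a zinc finger gene, fell from 72.5, 106 and 57.2 to 4.82, 4.83 and 5.46 in MLL-NRIP3 leukemia. Chst15, a chondroitin sulfotransferase, fell there from 216, 223 and 181 to 49.2, 28.2 and 46.6. The MLL-AF9 responses of these 2 genes, 0.76 and 0.59, were not called under that spread. They were called with limma on the MLL-AF9 arrays alone (adjusted p = 0.00676 and 0.0144). The differences of Zfp783 and Chst15 were -2.89 (adjusted p = 6.85e-05) and -2.56 (adjusted p = 0.000107). The endothelial lipase gene Lipg rose by 1.78 in MLL-AF9 leukemia, with a difference of -2.47 (adjusted p = 0.00177). Penk, the proenkephalin gene, rose from 168, 141 and 122 to 940.2, 760.3 and 728 in MLL-AF9 leukemia, and its difference of -2.94 (adjusted p = 0.0154) lost its call in 4 alternatives, at an adjusted p of up to 0.097. Ighm, the immunoglobulin heavy chain gene, fell from 1113, 759 and 195 to 59.6, 35.4 and 60.2 in MLL-NRIP3 leukemia, and its difference of -2.84 (adjusted p = 0.02) lost its call in 8 alternatives. For the interferon-induced membrane protein gene Ifitm6 neither response was called under the shared spread (adjusted p = 0.264 and 0.0647). Its difference of -2.68 (adjusted p = 0.0308) lost its call in 10 alternatives. With limma on the MLL-AF9 arrays alone, the MLL-AF9 responses of Ighm (-0.25) and Ifitm6 (1.35) were called (adjusted p = 0.0197 and 0.00424). Ighm thus fell in both models, whereas Ifitm6 rose in MLL-AF9 leukemia.

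The opposite combination, down in MLL-AF9 and up in MLL-NRIP3 leukemia with both responses called, was found for 6 genes. Psma8, a proteasome subunit known from the testis, read 96.4, 102 and 91.6 in control and 44.1, 19.6 and 30.8 in deleted MLL-AF9 arrays. It read 9.15, 3.75 and 3.98 in control and 109.8, 97.8 and 54.5 in deleted MLL-NRIP3 arrays. The genotypes were fully separate in both models, and the difference of 3.50 (standard error 0.31, adjusted p = 6.51e-05) was the highest of all genes. Angpt1, the gene of the TIE2 ligand angiopoietin 1, fell from 54.9, 94.2 and 77.7 to 16.1, 7.95 and 17.2 in MLL-AF9 leukemia and rose from 223, 147 and 326 to 529, 378 and 592 in MLL-NRIP3 leukemia, with a difference of 2.71 (standard error 0.36, adjusted p = 0.00123). With limma on the MLL-NRIP3 arrays alone, the rise of Psma8 was called (adjusted p = 0.00236) but that of Angpt1 was not (adjusted p = 0.0895).

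Fut8, the enzyme of core fucosylation, read 359, 368 and 364 in control and 239.9, 247 and 268 in deleted MLL-AF9 arrays and 569.8, 746 and 754 in control and 1977, 2015 and 1688 in deleted MLL-NRIP3 arrays. Its difference was 1.95 (standard error 0.15, adjusted p = 5.31e-05). The lymphoid transcription factor gene Ikzf3 (Aiolos) gave 1.61 (adjusted p = 0.00487), Tdrd3, a tudor domain protein, gave 1.09 (adjusted p = 0.00719), and Ncoa7, a nuclear receptor coactivator, gave 0.97 (adjusted p = 0.00251). The 3 arrays of each genotype were fully separate in both models, in opposite directions, for 364 of the 12232 genes (2.98%). They were separate for each of the 35 genes with opposite called responses too. That follows largely from choosing these genes by the same arrays and is no further evidence.

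**Figure D3:**
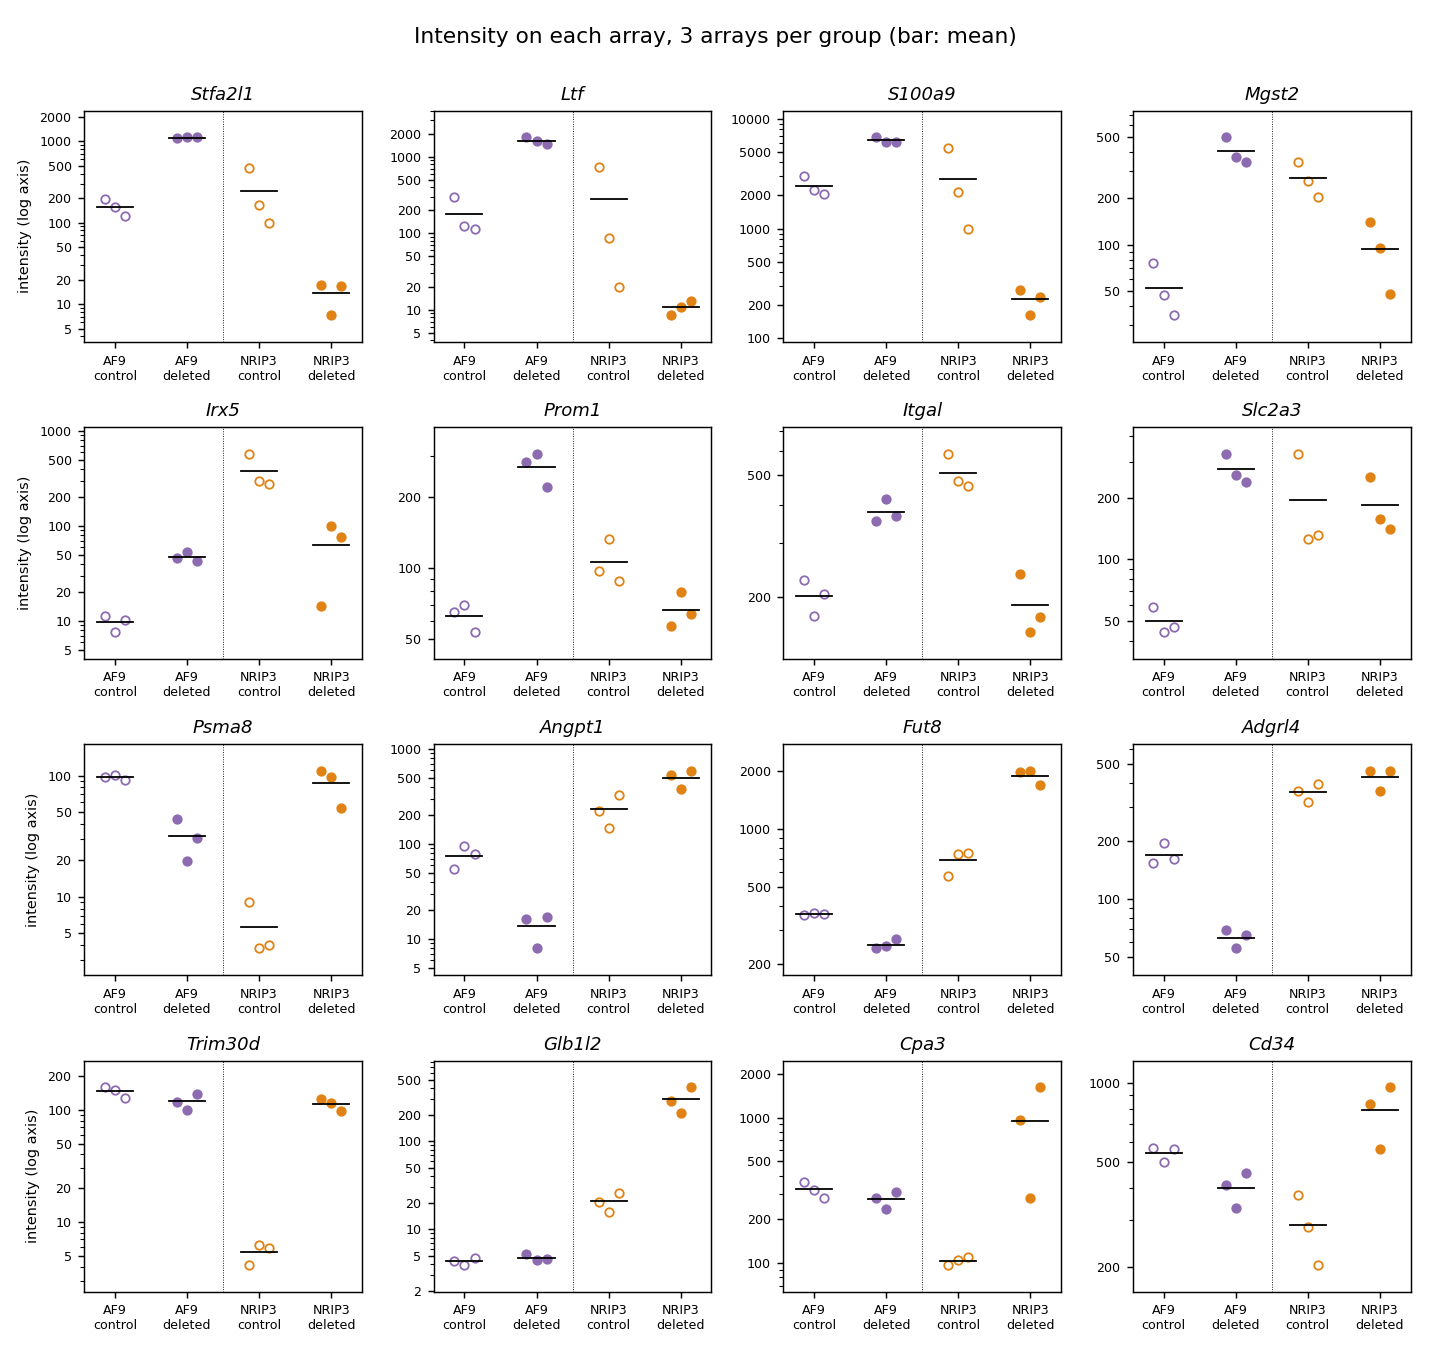
Intensity on each of the 12 arrays (log axis) for 16 genes, with open points for control, filled points for Rictor-deleted arrays and a bar at each mean. Deleted arrays lie above controls in MLL-AF9 and below them in MLL-NRIP3 leukemia for the genes of the upper row, the reverse holds for Psma8, Angpt1 and Fut8, and for Trim30d, Glb1l2, Cpa3 and Cd34 deleted arrays lie above controls in MLL-NRIP3 leukemia, where 1 deleted array of Cpa3 reads 279.7.

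For several of the highest differences only the MLL-NRIP3 response was called under the shared spread. Glb1l2, a galactosidase-like gene, read 4.38, 3.92 and 4.68 and 5.2, 4.49 and 4.57 in control and deleted MLL-AF9 arrays but rose from 20.5, 15.9 and 26.1 to 285, 212 and 412 in MLL-NRIP3 leukemia, with a difference of 3.04 (standard error 0.25, adjusted p = 5.31e-05). Tmem98, a transmembrane protein gene, rose from 16.3, 17.3 and 37.4 to 284, 216 and 185, with a difference of 2.62 (adjusted p = 0.000117). The small GTPase gene Rab38 rose from 38.3, 35.8 and 37.6 to 225, 218 and 356, with a difference of 2.42 (adjusted p = 0.00122). In these 3 genes the deleted MLL-NRIP3 arrays lay above their controls, while the MLL-AF9 genotypes overlapped. Mdfic, an inhibitor of myogenic factors, gave 2.47 (adjusted p = 0.00679), with responses of -0.40 and 2.07, and the SNARE gene Stx3 gave 2.59 (adjusted p = 0.00575), with responses of -0.95 and 1.64; both lost their call in the unmoderated test. The lipase family gene Lipo3 read 72.1, 113 and 106 in control and 29.9, 13.3 and 30.7 in deleted MLL-AF9 arrays and 2.82, 2.75 and 2.24 and 71, 61.3 and 4.62 in MLL-NRIP3 arrays. Its estimates were similar in size (-1.49 and 1.48) on the scale of log2(intensity + 16). That scale understates the change in MLL-NRIP3 leukemia, where the controls were dim. Its difference (2.97, adjusted p = 0.0124) lost its call in the unmoderated test and without MLL-NRIP3 control arrays 1 and 2.

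A cluster of Trim genes on chromosome 7, which encode tripartite motif proteins some of them with antiviral roles, held neighbouring called genes. Of 9 tested genes of the Trim30, Trim12 and Trim34 cluster, 6 were called above 0 and 1, Trim68, below 0 (-0.76), with a median difference of 0.97. Together these were 77.8% of the cluster, beside 4.18% of all genes. Trim30d read 159, 151 and 127 in control and 118, 100.3 and 138 in deleted MLL-AF9 arrays, and 4.14, 6.3 and 5.89 in control and 124, 114 and 97.6 in deleted MLL-NRIP3 arrays. Within MLL-NRIP3 leukemia the controls lay far below the deleted arrays, while the MLL-AF9 genotypes overlapped, and the difference was 2.84 (standard error 0.18, adjusted p = 1.25e-05). Trim34a read 5, 7.36 and 9.2 in MLL-NRIP3 controls and 81.1, 75.9 and 78 in deleted cells, with a difference of 2.13 (adjusted p = 1.25e-05). Trim12a likewise read 3.6, 2.13 and 2.56 and 92.2, 84.8 and 63.8, with a difference of 2.26 (adjusted p = 5.31e-05).

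Trim6, Trim34a, Trim5 and Trim12a followed each other on the chromosome among the genes tested. This was the longest run of called genes in one direction, and Trim30a (1.40) and Trim30d formed another run. Trim34a, Trim12a, Trim30d and Trim68 kept their calls in each of 16 fits that left out arrays or changed a setting. Trim5, Trim6 and Trim30a did not, and Trim6 was dim (below 7.61) on every MLL-AF9 array. Probe sets of these genes did not all move alike: a further probe set of Trim34a gave -0.32 and was called, and those of Trim12a and Trim30d gave 0.20 and 0.25 and were not. The members of this family are close copies of each other, so that a probe set may measure more than 1 of them. In all, 28 runs held 58 genes, among them Trem1 and Trem3, Tlr1 and Tlr6, Cd177 and Ceacam10, and Slfn2 and Slfn4, all below 0.

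Of 4 tested eosinophil genes, 2 were called, both above 0 (50.0%, beside 1.87% of all genes), with a median difference of 1.31. Prg3, a proteoglycan of eosinophil granules, fell from 442, 555 and 543 to 123, 72.3 and 123 in MLL-AF9 leukemia, whereas in MLL-NRIP3 leukemia it read 40.6, 78.2 and 30.7 in control and 41.3, 34.6 and 29.9 in deleted arrays, which overlapped. Its difference of 1.84 (standard error 0.34, adjusted p = 0.00849) thus came from the MLL-AF9 arrays. The cytokine receptor gene Il17rb fell from 303, 199.7 and 241 to 110.0, 78.8 and 127 in MLL-AF9 leukemia but was dim on all MLL-NRIP3 arrays (6.38, 9.38 and 7.41 and 6.56, 7.42 and 6.89), where a fall could hardly be measured; its difference of 1.08 (adjusted p = 0.0174) lost its call in 4 alternatives. Prg2, the major basic protein, gave 1.54, which was not called (adjusted p = 0.0709).

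Of 6 tested mast cell and basophil genes, 3 were called, all above 0 (50.0%, beside 1.87% of all genes), with a median difference of 1.14. Hdc, the enzyme that makes histamine, read 18.6, 16.5 and 17.9 in control and 12.9, 12.5 and 10.5 in deleted MLL-AF9 arrays and rose from 163, 154 and 185 to 492, 353 and 491 in MLL-NRIP3 leukemia, with a difference of 1.59 (standard error 0.18, adjusted p = 0.000367). The mast cell protease gene Cpa3 rose from 97.1, 106 and 110.1 to 959, 279.7 and 1616 in MLL-NRIP3 leukemia. Its deleted arrays lay above every control but ranged nearly 6-fold, and its difference of 2.91 (standard error 0.60, adjusted p = 0.0166) lost its call in 5 alternatives. Gata2, a transcription factor of mast cells and progenitors, gave 0.94 (adjusted p = 0.0266) and lost its call in 9 alternatives. The basophil protease gene Mcpt8 and the mast cell tryptase gene Tpsb2 had differences of -0.30 and -0.01 and were not called, and 6 measured members were too dim to test.

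Among 23 tested targets of MLL fusions, 4 were called above 0 (17.4%, beside 1.87% of all genes) and none below, with a median difference of 0.30. Hoxa5, a homeobox gene of the Hoxa cluster, read 86.8, 57.6 and 82.2 in control and 44.7, 52.4 and 49.5 in deleted MLL-AF9 arrays and rose from 387, 382 and 630.3 to 984, 1008 and 1028 in MLL-NRIP3 leukemia, with a difference of 1.61 (standard error 0.25, adjusted p = 0.00319). The remaining called targets were Angpt1, Meis1 (0.93, adjusted p = 0.038) and Hoxa9 (0.64, adjusted p = 0.0335); the last 2 lost their call in 12 and 13 alternatives.

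Among 28 tested stem cell and quiescence genes, 3 were called above and 1 below 0 (14.3%, beside 4.18% of all genes), with a median of 0.14. Cd34, a surface protein of progenitors, read 567, 501 and 560.0 in control and 408, 335 and 456 in deleted MLL-AF9 arrays and rose from 376, 284 and 203 to 833, 564 and 967 in MLL-NRIP3 leukemia. The genotypes separated in both models in opposite directions, only the MLL-NRIP3 response was called, and the difference was 1.85 (standard error 0.30, adjusted p = 0.0044). Ikzf2, the transcription factor Helios, gave -1.69 (adjusted p = 0.0174) and lost its call in 3 alternatives, and Mycn gave 1.14 (adjusted p = 0.0353) but lost its call in 15 alternatives. Kit, the receptor of stem cell factor, gave 0.98 (standard error 0.22, adjusted p = 0.0269), with means of 195 ± 36.4 and 143 ± 12.2 in control and deleted MLL-AF9 arrays and 341 ± 43.7 and 524 ± 102 in MLL-NRIP3 arrays (SD, n = 3); it lost its call in 10 alternatives. Itga2b, the platelet integrin CD41 that early progenitors also carry, rose from 43.1, 46 and 38.6 to 109, 108 and 135 in MLL-NRIP3 leukemia and gave 1.51 (adjusted p = 0.000159); it was the 1 gene called of 9 megakaryocyte and platelet genes.

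Of 29 tested myeloid transcription factors, Ikzf3 and Runx1 were called above 0 and Id2 below (10.3%, beside 4.18% of all genes), with a median of -0.04. Runx1, a core factor of blood formation, rose from 116, 132 and 111 to 229.5, 190.2 and 221 in MLL-NRIP3 leukemia, with a response of -0.36 in MLL-AF9 leukemia that was not called and a difference of 1.11 (adjusted p = 0.00493). Id2, an inhibitor of E proteins, fell from 99.5, 63.2 and 36 to 21.4, 21 and 19, and its difference was -1.73 (adjusted p = 0.0108).

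Immediate early genes are those that cells induce first after a stimulus. Of 35 tested, 29 had a positive difference and 3 were called, all above 0 (8.57%, beside 1.87% of all genes), with a median of 0.56. Jun, a subunit of the AP-1 factor, read 102, 86.5 and 38.1 in control and 2087, 1983 and 263 in deleted MLL-NRIP3 arrays, where the third deleted array was far below the other 2. In MLL-AF9 leukemia the genotypes overlapped at 20.2, 9.51 and 18.6 and 25.7, 28.9 and 5.9. The difference of 3.48 (standard error 0.87, adjusted p = 0.0434) lost its call in 17 alternatives, at an adjusted p of up to 0.151. Socs3 and Atf3 (0.99 and 1.25, adjusted p = 0.0218 and 0.0426) lost theirs in 8 and 15, and Fos, Egr1 and Dusp1 had differences of 1.20, 1.27 and 1.49 and were not called.

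Cxcl2, a neutrophil-attracting chemokine, read between 3.35 and 4.71 on all MLL-AF9 arrays and rose from 56.9, 26.7 and 29.6 to 183, 211 and 109 in MLL-NRIP3 leukemia, with a difference of 1.74 (standard error 0.30, adjusted p = 0.00587). Nfkbiz, a nuclear IkB protein, gave 1.82 (adjusted p = 0.00637) and Ptgs2, the inducible cyclooxygenase, gave 0.97 (adjusted p = 0.00941). The antagonist of the interleukin 1 receptor, Il1rn, was called below 0, at -0.89 (adjusted p = 0.00587), with a rise of 0.77 in MLL-AF9 leukemia. In all, 4 of 20 tested genes of the NF-kB pathway and inflammatory cytokines were called, with a median difference of 0.04. Tlr1, a receptor for bacterial lipopeptides that is in none of these lists and was chosen after its values were seen, fell from 119, 126 and 135 to 28.8, 30.6 and 37.6 in MLL-NRIP3 leukemia and gave -1.75 (adjusted p = 5.31e-05).

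Of the 24 tested homing and adhesion receptors, Adgrl4 was called above 0, and Itgal and Cd81 were called below 0 (12.5%, beside 4.18% of all genes). Itgal, the alpha chain of the integrin LFA-1, rose from 229, 174 and 205 to 356, 419 and 369 in MLL-AF9 leukemia and fell from 588, 480.0 and 463 to 238, 154 and 173 in MLL-NRIP3 leukemia, with both responses called, and its difference was -2.24 (standard error 0.21, adjusted p = 0.000115). Adgrl4, an adhesion receptor of endothelium and progenitors, fell from 154, 195 and 161 to 69.2, 55.6 and 65.3 in MLL-AF9 leukemia, while the MLL-NRIP3 arrays overlapped; its difference was 1.47 (adjusted p = 0.000579). Cd81, a tetraspanin, gave -1.01 (adjusted p = 0.00795). Among 23 growth factor and cytokine receptors, Igf2r was called below 0 (-1.72, adjusted p = 0.00634) and Kit above. That is 8.7% of them, beside 4.18% of all genes.

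In the pathway that Rictor belongs to, the share of called genes was near the 4.18% of all genes. Of 32 tested genes of mTOR complexes and AGC kinases, 1 was called (3.12%), the protein kinase C gene Prkcb (-0.93, adjusted p = 0.000776), and the median difference was -0.10. Of 25 FoxO factors and targets, 1 was called, the mitophagy kinase gene Pink1 (-0.88, adjusted p = 0.0107), with a median of 0.00. Of 26 genes of glycolysis and the pentose phosphate pathway, 1 was called: the glucose transporter gene Slc2a3 rose from 58.5, 44.3 and 46.6 to 327, 258 and 239.7 in MLL-AF9 leukemia and read 326, 126 and 131 in control and 253, 158 and 141 in deleted MLL-NRIP3 arrays, with a difference of -2.13 (standard error 0.42, adjusted p = 0.0118).

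Among 40 genes of G1/S and DNA replication, the ribonucleotide reductase subunit Rrm2 was called (-0.65, adjusted p = 0.0038), and none was among 42 of G2/M and mitosis, 40 cytosolic ribosomal proteins, 74 of oxidative phosphorylation, 30 of MYC and ribosome biogenesis and 30 of lysosome and autophagy. The median differences of these last 5 lists were -0.09, 0.06, 0.11, 0.22 and -0.07. In 24 redox and glutathione genes, 2 were called above and 3 below 0 (20.8%, beside 4.18% of all genes). Among them, the glutathione transferase gene Mgst1 fell from 901, 1004 and 664 to 370.1, 395 and 379.9 in MLL-NRIP3 leukemia and gave -1.41 (adjusted p = 0.000579). The copper-zinc superoxide dismutase gene Sod1 (0.52, adjusted p = 0.0276) was another and lost its call in 9 alternatives. Of 35 interferon response genes, 3 were called above 0 (8.57%, beside 1.87% of all genes). They were Usp18 (1.47), Rsad2 (1.43) and Ifi35 (0.49), and each lost its call in 10 or more alternatives.

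**Figure D4:**
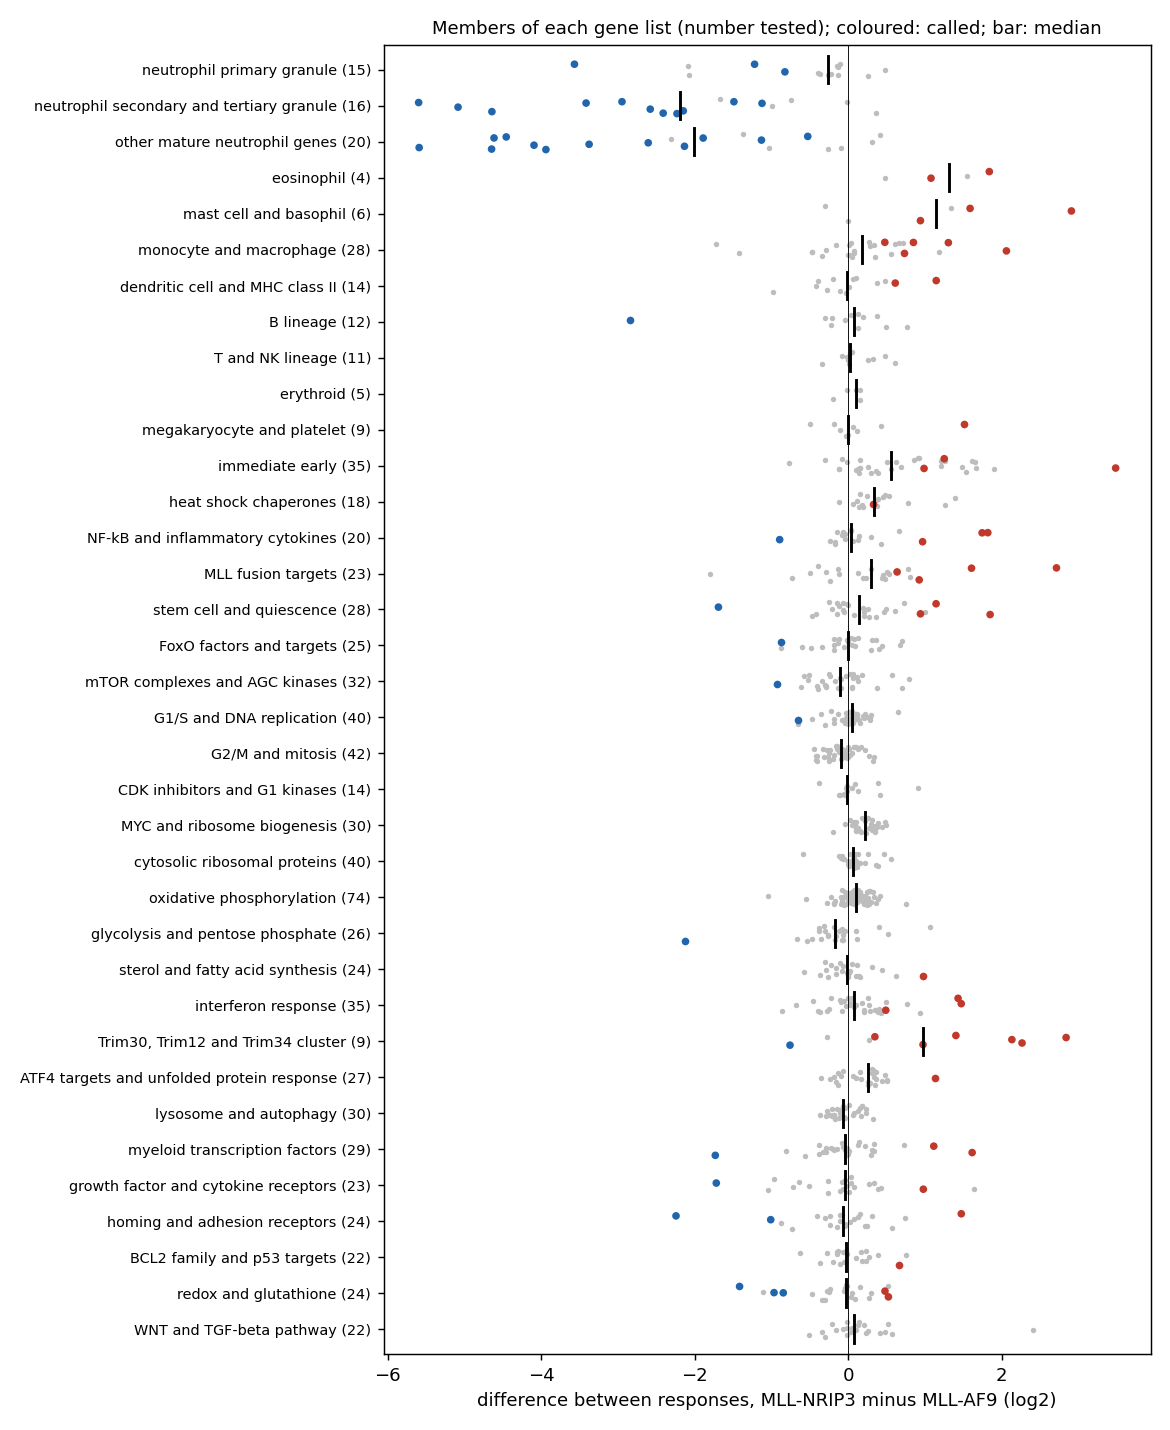
Each point is a tested member of a gene list (rows, with the number tested), placed by its difference between responses on the log2 scale; blue and red points are called below and above 0, grey points are not called, and the bar is the list's median. The secondary and tertiary granule and other mature neutrophil lists lie furthest to the left, with medians of -2.19 and -2.01, and most other lists have medians near 0.

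Of 28 tested monocyte and macrophage genes, 5 were called, all above 0 (17.9%, beside 1.87% of all genes), and the median difference was 0.18. Ms4a6d, a membrane protein of macrophages, rose from 10.5, 6.87 and 11.5 to 155, 72.4 and 66 in MLL-NRIP3 leukemia with a difference of 2.06 (standard error 0.29, adjusted p = 0.00176), while the adhesion molecule gene Vcam1 (1.30, adjusted p = 0.00875) combined a response of -0.73 in MLL-AF9 with 0.57 in MLL-NRIP3 leukemia. Mrc1, a mannose receptor (0.48), and C1qb, a complement component (0.73), fell in MLL-AF9 leukemia and were dim on every MLL-NRIP3 array (5.22, 5.45 and 3.2 and 3.14, 3.12 and 3.42, and 4.69, 4.42 and 4.25 and 2.9, 3.66 and 3.64), where a fall could hardly be measured. The difference of C1qb lost its call in 14 alternatives, at an adjusted p of up to 0.127. Of 14 dendritic cell genes, 2 were called, both above 0 (14.3%, beside 1.87% of all genes). They were Clec10a (1.15, adjusted p = 0.00574) and Cd209a (0.61, adjusted p = 0.0477). The latter lost its call in 20 alternatives. None of 11 T and NK and 5 erythroid genes was called, and of 12 B lineage genes only Ighm was.

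The calls were compared over the arrays and settings. In each of the 12 fits that left out 1 array, 260 of the 511 genes were called again, 151 below and 109 above 0, and 224 of them, 132 below and 92 above 0, were also called with quantile normalization, with that control signal as a covariate, with a replicate block within each model and without MLL-NRIP3 control arrays 1 and 2. The number called fell to between 291 and 348 without any one of the MLL-AF9 arrays. It rose to 1329 without MLL-NRIP3 control array 3 and to 906 without MLL-NRIP3 deleted array 3. Of genes named above, Prg3, Vcam1, Cxcl2, Nfkbiz, Ptgs2, Id2, Igf2r, Cd81 and Slc2a3 also lost their calls in the unmoderated test. Genes with opposite called responses numbered between 13 and 73 over the same fits. Of the 511 genes, 260 had a further probe set, of which the next brightest had the same sign for 241 and was itself called in the same direction for 89; a further probe set was called in the opposite direction for Cep85 and Trim34a.

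**Figure D5:**
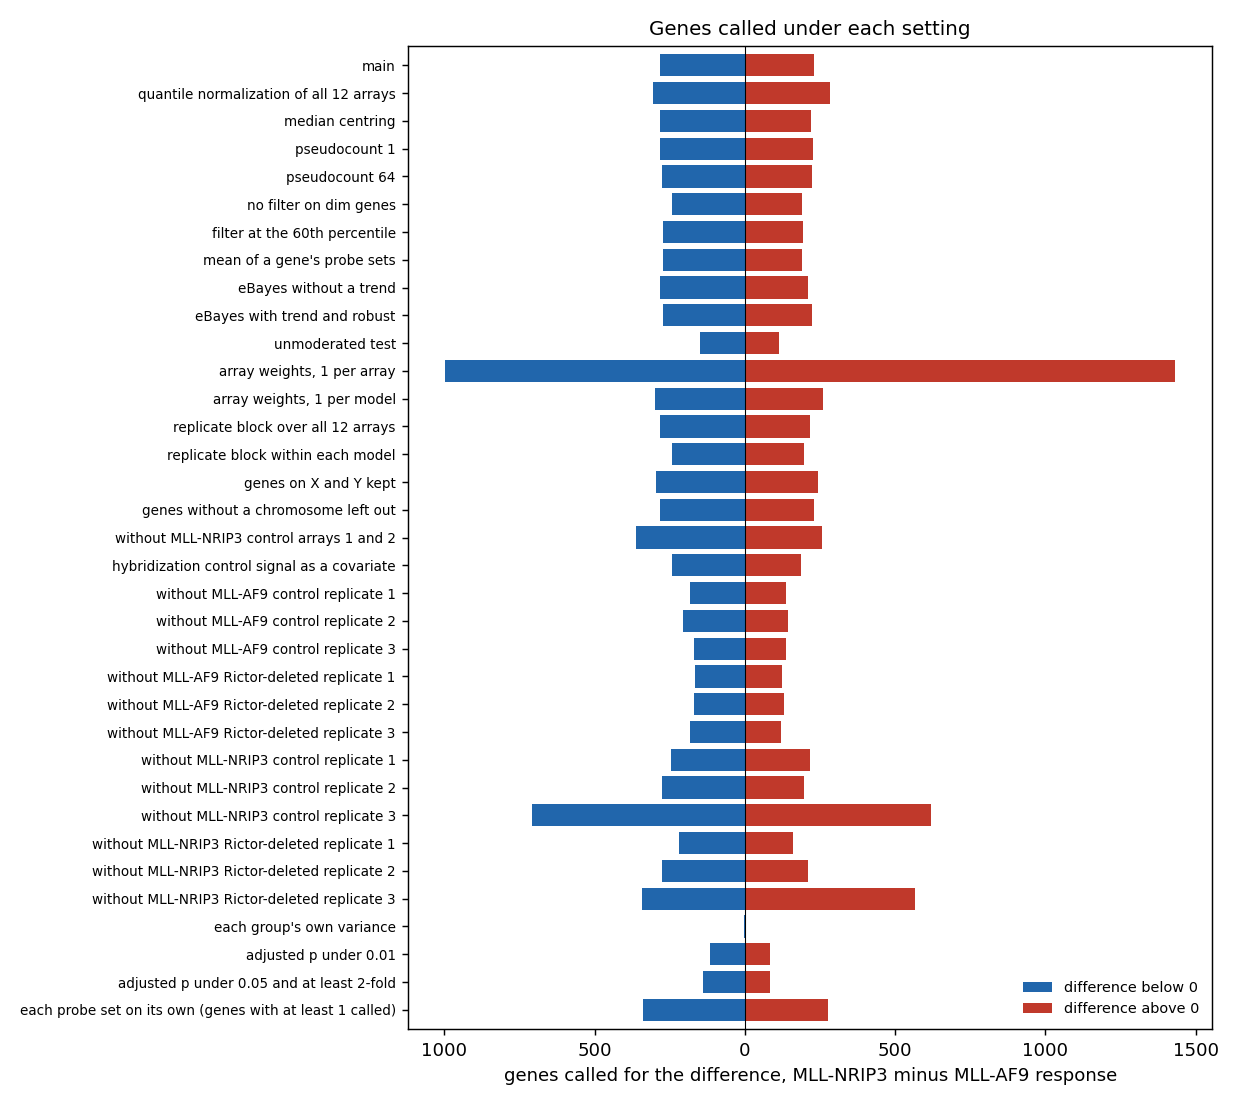
Genes called for the difference (x axis, number of genes) under each setting (y axis), with differences below 0 to the left in blue and above 0 to the right in red. The main setting gives 282 and 229, weights for single arrays give the most (998 and 1433), and each group's own variance gives the fewest (2 and 2).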

How the data were processed

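RNA of sorted mouse leukemia cells was measured on 12 Affymetrix arrays, from 7 µg of total RNA each, per the labels' protocols. The authors deposited 1 linear intensity for each probe set on each array. How they summarised and normalized these intensities, and with which software and build, is not stated in the sources used here. The distributions look as if the authors had normalized each model separately.

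Of 45101 probe sets, 34958 had 1 gene symbol in the platform annotation, 932 had several and 9211 had none. Genes were represented by the brightest probe set with 1 symbol, which gave 18194 genes, 18032 of them matched in a RefSeq table of GRCm38.p6 that served for names, chromosomes and neighbours. Genes on X and Y were left out, as were genes under the 40th percentile of mean intensity (7.58). The number of arrays limits the precision.

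Values were used as log2(intensity + 16), which understates changes of dim genes. Since intensities were lower on the MLL-AF9 arrays, this can act unequally on the 2 responses that are subtracted. With 1 or 64 added in place of 16, 511 and 501 genes were called, and 475 of the calls of the main fit were kept each time. With limma 3.58.1 (R 4.3.3; lmFit, and eBayes with its trend option), 1 model with a mean per group and a shared estimate of the spread was fitted to the 12 arrays, and the interaction was tested on 2 sides with Benjamini-Hochberg adjustment over 12232 genes. A gene is called at an adjusted p under 0.05. Simulated arrays, in which each group had its own spread as estimated from 3 arrays, served to test the fit, and there its share of false calls exceeded the nominal one. Exact permutation of 3 against 3 arrays cannot pass that threshold and was not used. Python 3.11.15 with pandas 2.3.3 made the tables and matplotlib 3.10.9 the figures.

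Genes were named by a rule: among called genes without clone names, the 12 highest and 12 lowest differences outside the 3 neutrophil lists, the 10 largest within them, up to 8 opposite responders in each direction, up to 4 members of each of 36 lists, and Rictor, Kit and Ptprc. Members of lists named beyond these, and Cenpv, Crnde, Tlr1, Marveld1 and genes of neighbouring runs, were chosen after their values were seen. The comparison and the lists were chosen with earlier results of these data known. Replicate numbers are shared by the groups, but same-numbered arrays did not deviate together (correlations between -0.134 and 0.060), so they were not treated as pairs. Alternatives were other normalizations, pseudocounts, filters, probe set rules, moderation, array weights, a replicate block, quality covariates, thresholds and leaving out arrays. The responses were also tested with limma on the arrays of each model alone. Upstream sequences are those of RefSeq, GRCm38.p6, searched on both strands.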

Additional observations from a re-analysis of the deposited data

Results flagged for a closer look

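Each gene given here by size or for its opposite responses was picked out because the response to Rictor deletion differed between the leukemias by the interaction test (limma, adjusted p under 0.05), which is the comparison of the report itself. In the neutrophil lists these were Ltf (-5.60), Stfa2l1 (-5.59), Ngp (-5.08), S100a9 (-4.64), Camp (-4.64), Fpr2 (-4.61), Stfa3 (-4.45), Mgst2 (-4.09), Itgb2l (-3.94) and Fcnb (-3.57). Below 0 outside those lists were Irx5 (-3.75), Ces1d (-2.94), Penk (-2.94), Gpr84 (-2.90), Zfp783 (-2.89), Ighm (-2.84), Ifitm6 (-2.68), Pram1 (-2.66), Mapk13 (-2.58), Chst15 (-2.56), Lipg (-2.47) and Prom1 (-2.40). Above 0 were Psma8 (3.50), Jun (3.48), Glb1l2 (3.04), Lipo3 (2.97), Cpa3 (2.91), Trim30d (2.84), Angpt1 (2.71), Tmem98 (2.62), Stx3 (2.59), Mdfic (2.47), Rab38 (2.42), Trim12a (2.26), Fut8 (1.95), Ikzf3 (1.61), Tdrd3 (1.09) and Ncoa7 (0.97), all as differences on the log2 scale.

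When genes on chromosomes X and Y, left out of the comparison, were tested with the rest, 27 of 350 were called for the difference. Among them Xist had a difference of 4.51 and Eif2s3y one of -3.11, beside the levels given in the report.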

How the results depend on the processing

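The count of 511 called genes (229 above 0, 282 below 0, 35 with opposite called responses) stayed within 1.5 times with quantile normalization, median centring, other pseudocounts and filters, other probe set rules, other eBayes forms, 1 weight per model, X and Y kept and without MLL-NRIP3 control arrays 1 and 2, except that opposite responses numbered 23 when probe sets of a gene were averaged. It moved to 264 (115, 149 and 7) in the unmoderated test, to 2431 (1433, 998 and 172) with 1 weight per array, to 200 (83, 117 and 11) at an adjusted p under 0.01 and to 226 (85 and 141) with a 2-fold minimum. With each group's own variance it was 4 (2, 2 and 0), and 0 of 26 neutrophil genes kept their call; 1482 genes then had an unadjusted p under 0.05. With the control signal of hybridization as a covariate, 429 genes were called, 305 of them among the 511, and opposite responses numbered 19. A similar total thus did not mean the same genes, and this also held without MLL-NRIP3 control arrays 1 and 2. Leaving out 1 array gave 291 to 1329 calls, 121 to 620 above 0, 167 to 709 below 0, 13 to 73 opposite responses and 23 to 31 neutrophil genes. The replicate block over all arrays gave 499 calls and within each model 438, and pairing by number was not borne out. No named gene that was called changed sign in these alternatives, whereas some uncalled genes and some list medians near 0 did, and the T and NK list had no median under the strictest filter on dim genes. The cause of these shifts was not tested.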

Other observations

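Beyond the lists, further myeloid genes had called responses of opposite sign, named here after their values were seen. Anxa2, a membrane-binding annexin, gave a difference of -1.70, Lyst, a regulator of lysosome and granule size, gave -1.37, and Dok2, an adaptor that damps kinase signalling, gave -2.08. Each rose in MLL-AF9 leukemia (by 1.04, 0.68 and 0.74 on the log2 scale) and fell in MLL-NRIP3 leukemia (by 0.67, 0.69 and 1.34). Abhd5, a cofactor of triglyceride lipase, followed with -1.88.

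Among the 71 genes for which, under the shared spread, only the MLL-AF9 response was called beside the difference, 54 were below 0. They included the lectin receptor Clec5a (-2.05) and its neighbour on chromosome 6 among the genes tested, Mgam, which was also called below 0, the fatty acid receptor Ffar2 (-2.17), the 5-lipoxygenase gene Alox5 (-1.13) and the Src family kinase gene Fgr (-1.42). Of the 41 genes for which neither response was called on its own, all had estimates of opposite sign, 26 below 0 and 15 above 0.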
